A study of Mus musculus with 23 samples.

Results

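The Cyp3a genes encode cytochrome P450 enzymes of the endoplasmic reticulum that oxidise drugs, steroids and bile acids. In mouse liver Cyp3a11 is the form best known for its induction by pregnenolone 16α-carbonitrile (PCN), a steroid that binds the mouse pregnane X receptor (PXR, gene Nr1i2). PXR binds DNA as a pair with the retinoid X receptor at repeats of a short core motif, and it is found in hepatocytes and in the epithelium of the intestine. The members described here were the 7 genes Cyp3a11, Cyp3a13, Cyp3a16, Cyp3a25, Cyp3a41a, Cyp3a44 and Cyp3a59, chosen by name: every probe of the array that is not a control and carries one of these names was taken. Each had 1 probe, so 7 of 36693 gene names and 7 of 56605 probes were followed, and all 7 were among the 32087 probes that passed a filter on dim signals. Cyp3a44 passed through WT PCN arrays alone. The array held 1 other gene named Cyp3a, Cyp3a57, whose values are given beside the members.

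The livers came from 23 male mice, each read on an Agilent array of its own. Wild-type (WT) C57BL/6J mice and Pxr-/- mice backcrossed on that background were injected intraperitoneally each day for 4 days with PCN at 100 mg/kg in corn oil, or with corn oil alone (CONT), and all were killed at zeitgeber time 6, 6 h after the last injection. The labels record the mice as fed, and the study's text calls the state at that time semi-fasted. The groups were WT CONT (n = 6), WT PCN (n = 5, a further planned mouse not being analysed here), Pxr-/- CONT (n = 6) and Pxr-/- PCN (n = 6). The WT mice were purchased at 6 weeks of age, whereas Pxr-/- mice came from the local colony, so genotype and colony cannot be told apart. The study's text gives 2 weeks of acclimatisation for the mice without naming a genotype. The nature of the deletion and the age of the Pxr-/- mice were not given in the sources used here.

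An array read between 29510 and 33321 probes well above background, and each of the 2 washing batches held 3 arrays of every group except for 2 WT PCN arrays in batch 2. All 8 hepatocyte markers were above background on all 23 arrays. Of the 7 enterocyte markers 3 were, and their summed log2 signal ranged from 15.05 to 15.80 in WT CONT and from 14.88 to 15.21 in WT PCN mice. The summed log2 signal of cholangiocyte markers ranged from 10.50 to 12.20 in WT CONT and from 11.68 to 12.96 in WT PCN mice; its part in the results was not tested. The deleted gene Nr1i2 was read by 1 probe, well above background on all arrays, at 11.47 ± 0.55 (SD, n = 6) under CONT and 12.10 ± 0.25 (n = 5) under PCN in WT mice. In Pxr-/- livers it read 11.44 ± 0.80 (n = 6) under CONT and 11.92 ± 0.52 (n = 6) under PCN. Whether that probe lies in the deleted part was not given, so it does not check the genotype labels. All signals below are log2 of the scanner's median signal after quantile normalization, and "called" means a limma adjusted p of at most 0.05 over all probes with a fold change above 1.5.

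The Cyp3a genes are close paralogs, and an array reads them through probes of 60 bases. The probes of 4 genes are printed because they show what the signals can and cannot separate, with positions on mm9 chromosome 5 as the array files give them.
Cyp3a11, chr5:146672058-146673925, minus strand: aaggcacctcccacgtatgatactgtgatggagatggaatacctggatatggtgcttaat
Cyp3a59, chr5:146920638-146920697, plus strand: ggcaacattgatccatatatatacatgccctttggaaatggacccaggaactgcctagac
Cyp3a25, chr5:146789175-146789234, minus strand: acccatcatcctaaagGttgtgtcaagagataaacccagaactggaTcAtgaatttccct
Cyp3a57, chr5:146151322-146151381, plus strand: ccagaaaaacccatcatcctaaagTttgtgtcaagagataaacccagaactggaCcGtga

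The capitals mark the 3 bases at which the Cyp3a25 and Cyp3a57 probes differ over the 52 bases they share. These were the only Cyp3a probes with a run of 20 or more bases in common with a probe of another gene name on the array, so their signals may overlap. Probes were compared with probes and not with transcripts, so this does not show that the other probes read 1 gene each. The interval given for the Cyp3a11 probe is 1868 bases long for 60 bases, so its bases are not contiguous in the genome. The array file lists transcripts of 4 genes for that probe (Cyp3a11, Cyp3a41b, Cyp3a41a and Cyp3a44), 2 genes for the Cyp3a25 probe (Cyp3a25 and Cyp3a59) and 2 for the Cyp3a41a probe (Cyp3a41a and Cyp3a41b). A signal is therefore that of the named probe, and transcripts of listed paralogs cannot be told apart within it. The other probes lay at 146197274 to 146197333 (Cyp3a16), 146505792 to 146505851 (Cyp3a41a), 146585717 to 146585776 (Cyp3a44) and, outside this cluster, 138335412 to 138335471 (Cyp3a13), all on chromosome 5 of mm9. Exons were not assigned, since no annotation of that build was used.

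PCN raised the Cyp3a11 signal in WT mice more than that of any other member. In WT CONT mice it ranged from 12.83 to 14.02 with a median of 13.66. The 5 WT PCN mice stood at 16.90, 17.29, 17.20, 17.28 and 17.12, all above every WT CONT mouse, as was the case for 5.52% of all probes. In Pxr-/- mice the range was 13.33 to 14.78 under CONT (median 14.45) and 14.14 to 15.13 under PCN (median 14.64), and these overlapped. The fitted log2 change in WT mice was 3.55 ± 0.23 (SE), an 11.7-fold rise (limma adjusted p = 4.12e-10), and that in Pxr-/- mice 0.31 ± 0.22 (adjusted p = 0.431). Among 32087 probes its WT change was 17th from the largest rise.

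**Figure D1:**
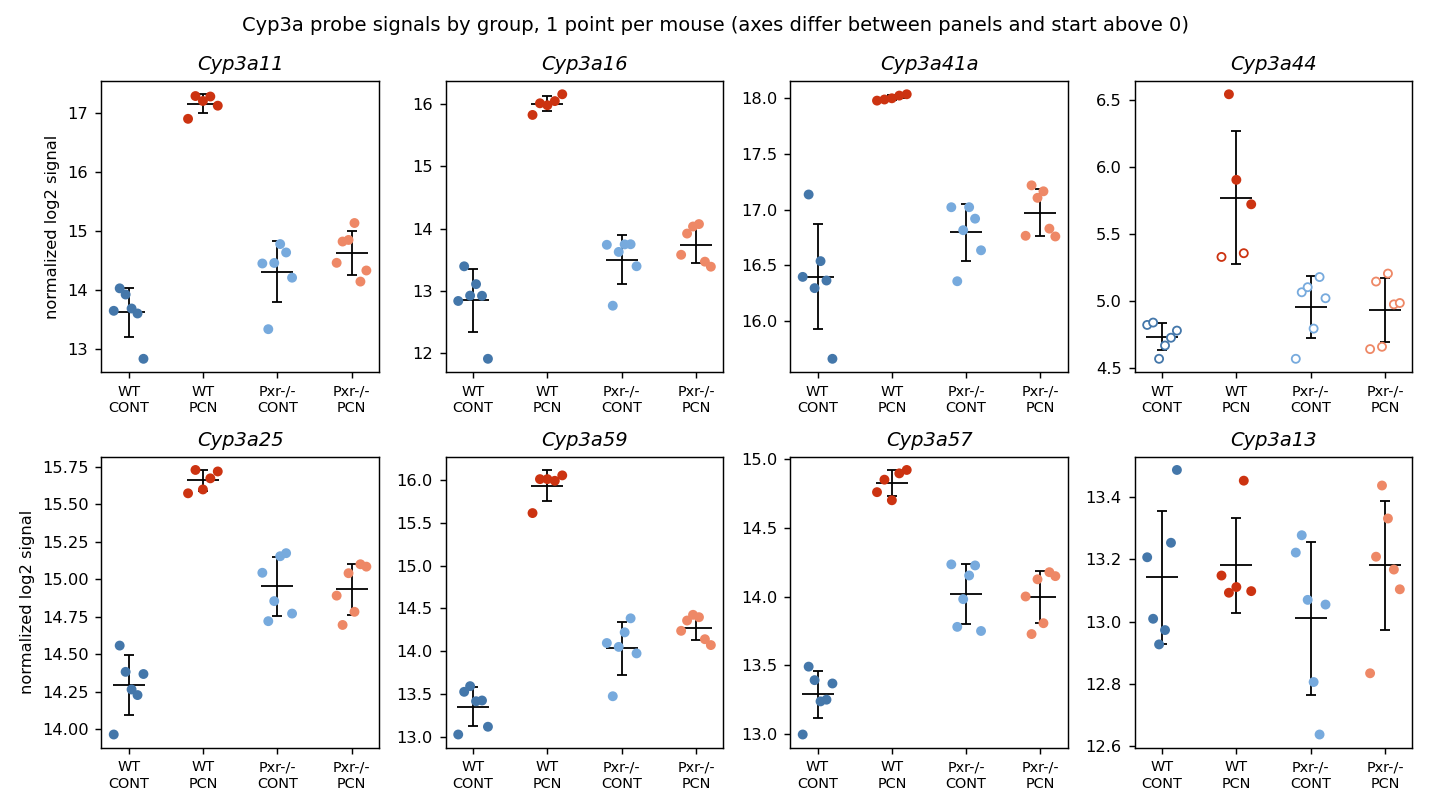
Normalized log2 signal (y axis, scaled per panel) of 8 Cyp3a probes in the 4 groups, 1 point per mouse, with bars for mean and SD; open points are arrays on which the probe was not well above background. WT PCN points lie above all WT CONT points in every panel but Cyp3a13, and Cyp3a44 is filled on 3 WT PCN arrays only.

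The probe of Cyp3a16, a form known from fetal and newborn liver, was well above background on all arrays of these adult males. Whether it also read transcripts of paralogs was not tested. Its signal ranged from 11.91 to 13.39 in WT CONT mice (median 12.92). In WT PCN mice it was 15.82, 16.01, 15.98, 16.04 and 16.15, without overlap with WT CONT. The rise was 3.16 ± 0.21 on the log2 scale (8.92-fold, adjusted p = 8.07e-10). The Pxr-/- values were 12.76 to 13.75 under CONT and 13.39 to 14.07 under PCN, a difference of 0.24 ± 0.20 (adjusted p = 0.528).

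Cyp3a41a and Cyp3a44 are forms known to be higher in female than in male liver. The Cyp3a41a probe ranged from 15.66 to 17.14 in WT CONT males (median 16.38). In WT PCN mice it stood at 17.98, 17.99, 18.002, 18.03 and 18.04, a rise of 1.61 ± 0.17 (3.06-fold, adjusted p = 1.45e-06). The narrow spread in WT PCN mice (SD 0.02) goes with ranks of 33 to 38 among all probes of an array, where quantile normalization sets arrays equal. With each array scaled by its 75th percentile instead, that SD was 0.13. No array was saturated at any Cyp3a probe. The Cyp3a41a signal of Pxr-/- mice ranged from 16.36 to 17.02 under CONT and from 16.76 to 17.22 under PCN.

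Cyp3a44 was not well above background on any WT CONT, Pxr-/- CONT or Pxr-/- PCN array. It was so on 3 of 5 WT PCN arrays. The WT PCN values were 5.33, 6.54, 5.90, 5.36 and 5.72, and the arrays at 5.33 and 5.36 were not well above background. Against WT CONT (4.57 to 4.84) the mean signal was 1.5-fold higher by a floored comparison. In it, each WT CONT array took the higher of its own value and its lowest signal well above background. The WT PCN arrays kept their own values, those at 5.33 and 5.36 included, so 1.5-fold is not a strict lower bound. Because the probe passed the filter through the group where it was high, no test of it is given as support. Its fitted change depended on the background treatment, being 1.07 on the main signal, 0.56 with normexp background correction, where it was not called, and 3.20 on the scanner's processed signal.

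Cyp3a25 and Cyp3a59 belong to the same cluster. Cyp3a59 ranged from 13.03 to 13.59 in WT CONT mice (median 13.42), and stood at 15.61, 16.01, 16.01, 15.99 and 16.05 in WT PCN mice. Its rise of 2.59 ± 0.13 (6.01-fold) had the smallest adjusted p of the members (7.94e-12). Cyp3a25 ranged from 13.96 to 14.56 in WT CONT mice (median 14.32) and was 15.57, 15.73, 15.60, 15.67 and 15.72 in WT PCN mice, a rise of 1.37 ± 0.10 (2.58-fold, adjusted p = 9.78e-09). Both sets of WT PCN values lay above all WT CONT values. The PCN change in Pxr-/- mice was 0.24 ± 0.13 for Cyp3a59 (adjusted p = 0.279) and -0.02 ± 0.10 for Cyp3a25 (adjusted p = 0.937). Cyp3a57, whose probe shares sequence with that of Cyp3a25, rose by 1.54 ± 0.11 in WT mice (adjusted p = 2.17e-09) and changed by -0.02 ± 0.10 in Pxr-/- mice.

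Cyp3a13, which is also known from the intestine and lies apart from the cluster, was well above background on all arrays. It ranged from 12.93 to 13.49 in WT CONT mice (median 13.11). In WT PCN mice it was 13.15, 13.09, 13.11, 13.45 and 13.10, within the WT CONT range. The PCN change in WT mice was 0.03 ± 0.13 (adjusted p = 0.885), with a 95% interval from -0.23 to 0.29, and in Pxr-/- mice 0.17 ± 0.12 (adjusted p = 0.441). The upper end of the WT interval, a 1.23-fold rise, lies below the rise of each of the other members.

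Counted together, 6 of the 7 members were called higher after PCN in WT mice, where 3.38% of all probes tested were. One of the 6 was Cyp3a44, and with a filter that left it out the count was 5. The median change was 1.61 over the members and -0.02 over all probes. In Pxr-/- mice none of the 7 was called in limma, where 1.23% of all probes were called higher, and the median change over the members was 0.18. No member of the 7 reached an unadjusted p of 0.05 there. The interaction, which asks whether PCN acted unequally in the genotypes, was called for 6 of 7 members against 0.676% of all probes. The 6 again include Cyp3a44, and with the filter that left it out the count was 5. It was largest for Cyp3a11 (3.24 ± 0.31, adjusted p = 1.23e-06) and Cyp3a16 (2.92 ± 0.29, adjusted p = 1.78e-06). It was 2.35 ± 0.18 for Cyp3a59, 1.43 ± 0.24 for Cyp3a41a and 1.39 ± 0.14 for Cyp3a25, with adjusted p from 7.19e-08 to 0.00155. The called interaction of Cyp3a44 has no reliable size, being 1.09 on the main signal and 3.13 on the processed signal. For Cyp3a13 it was -0.14 ± 0.17 (adjusted p = 0.776). Each washing batch alone called 5 of 7 interactions, Cyp3a44 being lost in batch 1 (adjusted p = 0.156) and Cyp3a41a in batch 2 (adjusted p = 0.213). The count in batch 2 thus includes Cyp3a44, of which no test is given as support, so the batches do not match in the other members.

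**Figure D2:**
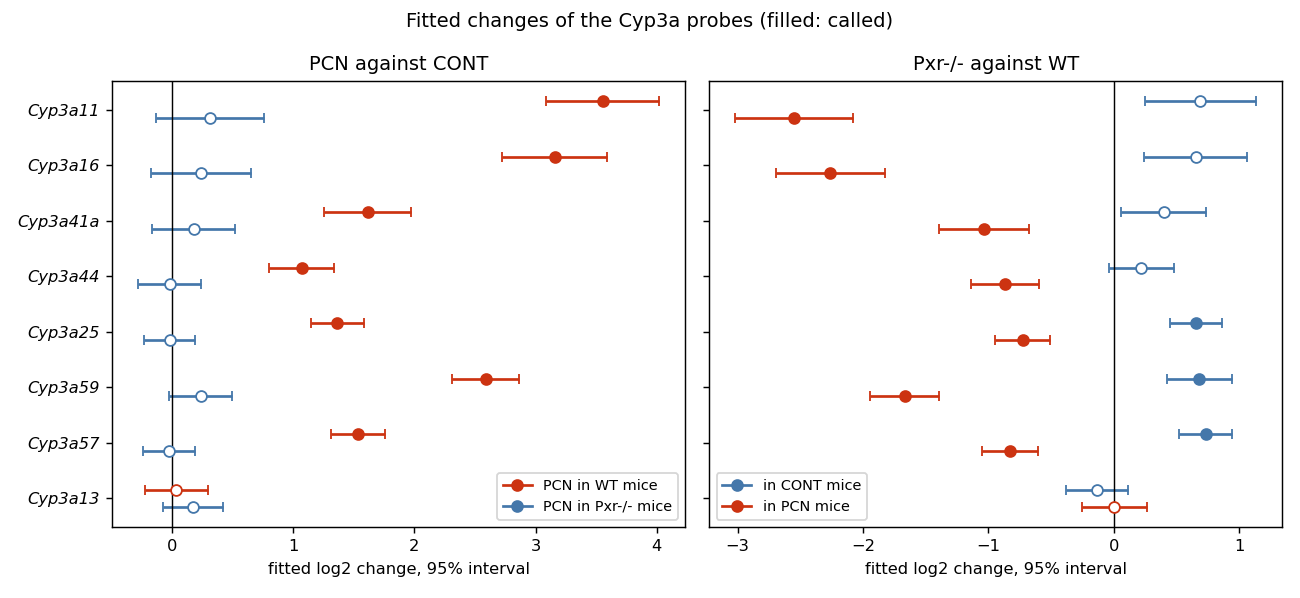
Fitted log2 change (x axis) with its 95% interval for 8 Cyp3a probes, PCN against CONT on the left and Pxr-/- against WT on the right; filled points are called. On the left the Cyp3a13 intervals and all Pxr-/- intervals include 0. On the right, Cyp3a25, Cyp3a59 and Cyp3a57 alone are called between CONT groups, higher in Pxr-/- mice, and the Cyp3a44 and Cyp3a13 intervals include 0. Pxr-/- PCN mice are below WT PCN mice, except for Cyp3a13. Cyp3a44 was well above background on 3 WT PCN arrays only.

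The probes of the members did not rise to the same extent. As the Cyp3a11 probe is also listed for transcripts of Cyp3a41a, Cyp3a41b and Cyp3a44, what follows compares probes and not separate genes. Because signals of different probes cannot be set against each other, the log2 difference between the Cyp3a11 probe and each other member was taken within an array and compared between WT PCN and WT CONT mice (two-sided exact permutation tests, 6 comparisons). The difference shifted by 3.50 for Cyp3a13, 2.18 for Cyp3a25, 1.93 for Cyp3a41a and 0.96 for Cyp3a59, each with exact permutation p = 0.00216, the smallest that 462 assignments of the mice allow (0.0026 adjusted). Against Cyp3a16 the shift was 0.39 (exact permutation p = 0.00866, also after adjustment). There the WT PCN values, down to 0.97, reached below the highest WT CONT value of 1.00. Against Cyp3a44 it was 2.51, but this rests on signals not well above background in WT CONT mice. It was 0.33 on the scanner's processed signal (adjusted permutation p = 0.442). In order of the fitted WT change the members were Cyp3a11, Cyp3a16, Cyp3a59, Cyp3a41a, Cyp3a25 and Cyp3a13, leaving out Cyp3a44, whose place changed with the background treatment. The 95% intervals of neighbours in that order overlapped for Cyp3a11 with Cyp3a16, for Cyp3a16 with Cyp3a59 and for Cyp3a41a with Cyp3a25.

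**Figure D3:**
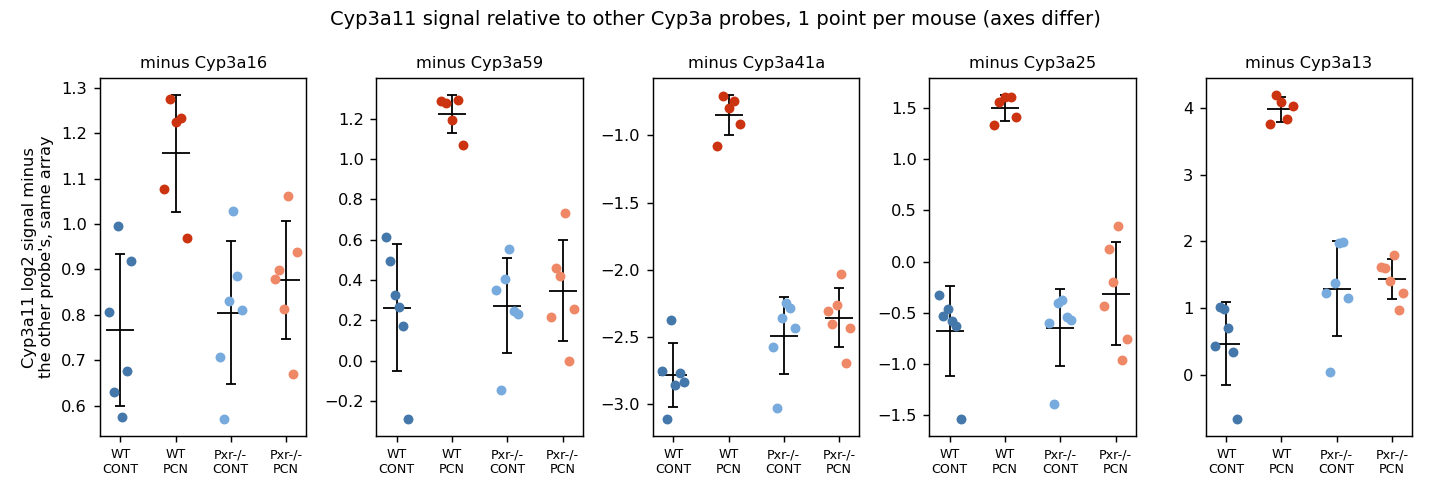
Log2 signal of the Cyp3a11 probe minus that of another Cyp3a probe on the same array (y axis, scaled per panel), by group, 1 point per mouse, with mean and SD. Only shifts between groups can be read. WT PCN mice stand above all WT CONT mice in each panel except that for Cyp3a16, where the ranges touch.

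Without PCN, some Cyp3a signals were higher in Pxr-/- than in WT livers. Cyp3a25 ranged from 14.72 to 15.17 in Pxr-/- CONT mice, above all WT CONT mice, as for 0.403% of all probes, with a difference of 0.66 ± 0.10 (1.58-fold, adjusted p = 0.00157). Cyp3a59 ranged from 13.48 to 14.39, and only the lowest mouse, replicate 2, fell within the WT CONT range. Its difference was 0.68 ± 0.13 (1.60-fold, adjusted p = 0.0104). These were the 2 of 7 members called higher, where 0.209% of all probes were, and Cyp3a57 was called as well (0.73 ± 0.10, adjusted p = 0.000706). Cyp3a11 (0.69 ± 0.22, adjusted p = 0.199), Cyp3a16 (0.65 ± 0.20, adjusted p = 0.192) and Cyp3a41a (0.40 ± 0.16, adjusted p = 0.36) had similar or smaller differences with more spread and were not called. The replicate 2 mouse of Pxr-/- CONT had the lowest signal of its group for 5 of the 6 members above background. Without it, Cyp3a11 was called (0.89, adjusted p = 0.0323). Leaving out WT CONT replicate 6 instead, the lowest of its group for Cyp3a11, lowered the Cyp3a11 difference to 0.51, below the fold threshold.

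These calls between CONT groups were close to the thresholds. On the values the authors deposited the differences were 0.57 for both Cyp3a25 (adjusted p = 0.0285) and Cyp3a59 (adjusted p = 0.0705), below the fold threshold, so that none of the 7 was called. There the median of all probes was itself shifted by -0.11, and relative to that median both differences were 0.68. Within washing batch 1 the values were 0.78 for Cyp3a25 (adjusted p = 0.0874) and 0.58 for Cyp3a59 (adjusted p = 0.629), and within batch 2 they were 0.54 (adjusted p = 0.123) and 0.78 (adjusted p = 0.0625).

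Between the PCN groups the direction was opposite. 6 of 7 members were called lower in Pxr-/- PCN than in WT PCN mice, where 1.15% of all probes were, and the groups did not overlap for any of these, as for 3.2% of all probes. With Cyp3a44 filtered out the count was 5. The difference was -2.55 ± 0.23 for Cyp3a11 (adjusted p = 1.76e-07), -2.26 ± 0.21 for Cyp3a16 and -1.67 ± 0.13 for Cyp3a59. It was -1.04 ± 0.17 for Cyp3a41a and -0.73 ± 0.10 for Cyp3a25 (adjusted p = 0.000162), both of which kept their sign but not their call within batch 2, which holds 2 WT PCN arrays. By the floored comparison used above, the Cyp3a44 signal was 1.47-fold higher in WT PCN than in Pxr-/- PCN mice, again not a strict lower bound. None of the Pxr-/- PCN arrays read it well above background. Cyp3a13 stood at 13.18 in both groups.

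The start sites of the members were examined for what they share. RefSeq promoters (GRCm38.p6) were found for 7 of 7 members and for Cyp3a41b and Cyp3a57. Over the 250 bases before the start, Cyp3a11, Cyp3a16, Cyp3a41a, Cyp3a41b and Cyp3a44 were 72.5% to 99.6% identical to each other, and Cyp3a25, Cyp3a57 and Cyp3a59 were 88.9% to 94.8% identical. Identity between these sets was 53.1% to 56.6%, and that of Cyp3a13 with all others was 47.9% to 58.4%. Of each set a promoter is printed, with Cyp3a16 beside Cyp3a11 because both rose most. Capitals mark the core motifs AGGTCA and AGTTCA on either strand.
Cyp3a11, chr5:145879855-145880104, minus strand: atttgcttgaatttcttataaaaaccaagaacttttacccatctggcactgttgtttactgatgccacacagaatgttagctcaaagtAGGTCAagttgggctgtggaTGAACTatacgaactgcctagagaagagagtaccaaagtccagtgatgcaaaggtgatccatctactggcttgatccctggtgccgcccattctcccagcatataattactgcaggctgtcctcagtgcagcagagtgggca
Cyp3a16, chr5:145469724-145469973, minus strand: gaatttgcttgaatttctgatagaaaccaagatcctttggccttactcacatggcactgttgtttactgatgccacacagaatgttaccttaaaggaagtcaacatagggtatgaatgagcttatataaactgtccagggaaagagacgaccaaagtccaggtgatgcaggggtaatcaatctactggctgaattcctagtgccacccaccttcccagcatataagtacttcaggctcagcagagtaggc
Cyp3a25, chr5:146009619-146009868, minus strand: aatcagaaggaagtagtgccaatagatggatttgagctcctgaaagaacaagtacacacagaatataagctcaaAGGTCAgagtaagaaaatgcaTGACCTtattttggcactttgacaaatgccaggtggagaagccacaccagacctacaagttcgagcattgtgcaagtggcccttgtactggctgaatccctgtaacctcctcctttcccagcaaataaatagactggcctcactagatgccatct
Cyp3a13, chr5:137921620-137921869, minus strand: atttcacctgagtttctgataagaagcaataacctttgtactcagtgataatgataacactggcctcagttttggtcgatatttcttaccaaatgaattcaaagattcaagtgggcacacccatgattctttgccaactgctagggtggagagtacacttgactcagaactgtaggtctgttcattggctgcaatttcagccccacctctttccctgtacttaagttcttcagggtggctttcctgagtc

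AGGTCA was found in the windows of Cyp3a11, Cyp3a25, Cyp3a44 and Cyp3a59, against 14.0% of 32851 promoter windows, and AGTTCA in those of Cyp3a11 and Cyp3a41a, against 11.8%. Either motif was present for 5 of 7 members and in 24.2% of all windows. Cyp3a25 and Cyp3a59 each held AGGTCA 2 times, once per strand. The Cyp3a16 and Cyp3a13 windows held neither. The signal of the Cyp3a16 probe rose 8.92-fold after PCN in WT mice and that of Cyp3a13 was not called. A link between these motifs and the PCN changes was not tested. None of the 7 windows held a direct repeat of these motifs 1, 3 or 4 bases apart (DR1, DR3, DR4) or an everted repeat 6 bases apart (ER6), which 0.067%, 0.0122%, 0.0244% and 0.00913% of all windows held. These are matches of letters close to the start and say nothing of sites farther away.

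Other drug-metabolism genes known as targets of PXR or of the related receptor CAR are set beside the members. Of 18 such genes tested, 14 were called higher after PCN in WT mice, where 3.79% of all 21056 genes were, with a median change of 1.36. Cyp2b10, a P450 best known as a CAR target, rose by 6.76, Cyp2c55 by 6.26 and the aldo-keto reductase Akr1b7 by 4.71 on the log2 scale (limma adjusted p = 9.53e-07, 4.89e-14 and 4.96e-09), each more than Cyp3a11. Of the 18, 3 were called higher in Pxr-/- mice against 1.42% of genes, namely the carboxylesterase Ces2a (0.71), the glutathione transferase Gstm2 (0.78) and the organic anion transporter Slco1a4 (1.31), whereas no Cyp3a member was called. Between the CONT groups 6 of the 18 were higher in Pxr-/- mice, against 0.228% of genes, among them Cyp2c55 (2.80) and Cyp2c29 (0.68), and Slco1a4 was called lower (-1.83).

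**Figure D4:**
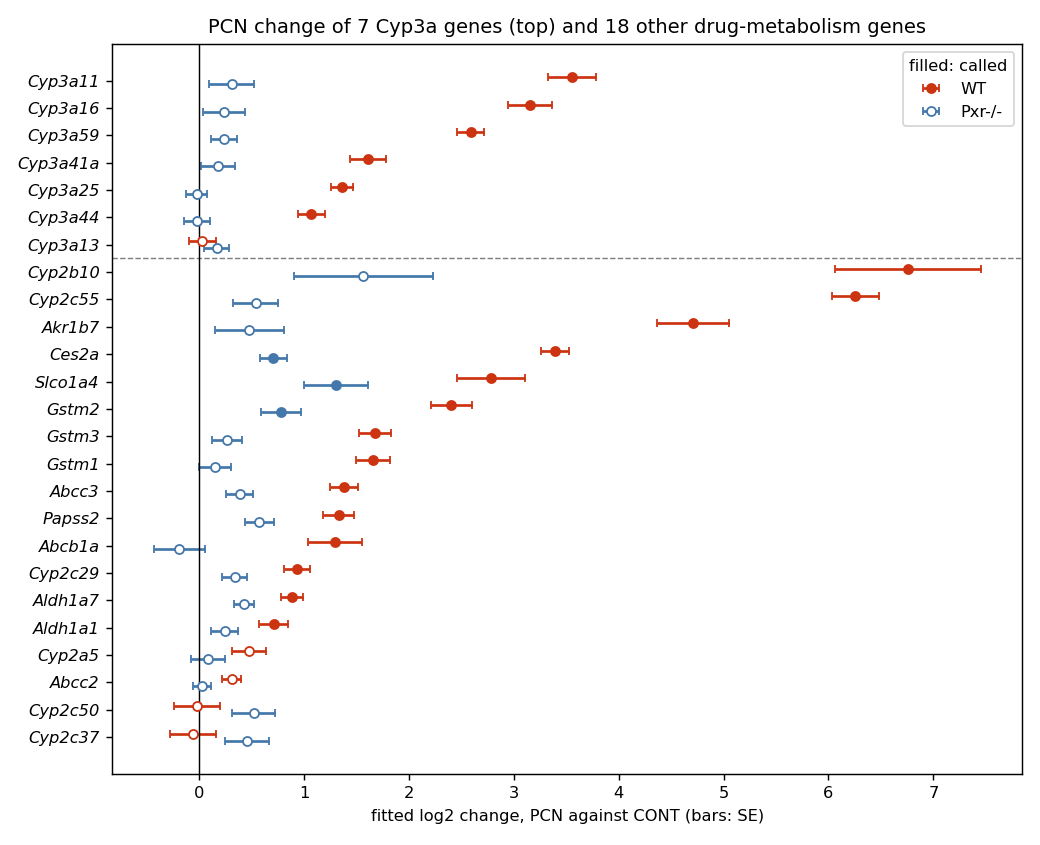
Fitted log2 change after PCN (x axis, bars are SE) of the 7 Cyp3a members, above the dashed line, and of 18 other drug-metabolism genes, in WT and Pxr-/- mice; filled points are called. Cyp3a44 was well above background on 3 WT PCN arrays only. In Pxr-/- mice Ces2a, Gstm2 and Slco1a4 are the only filled points.

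Cyp3a enzymes need electrons from the reductase Por and heme, whose synthesis starts with Alas1. Of the 6 genes of this kind, Por and Alas1 (0.70, adjusted p = 0.00674) were called higher after PCN in WT mice, and Por in Pxr-/- mice, where 3.79% and 1.42% of all genes were. Of 16 receptors, partners and liver factors, the factor Cebpb was called higher (0.68) and Cebpa (-0.72), the small partner Nr0b2 (-1.03) and the coactivator Ppargc1a (-1.20) lower in WT mice, against 3.79% of all genes higher and 2.39% lower. Ppargc1a was also called lower in Pxr-/- mice (-0.96) and Nr1i3, which encodes CAR, higher (0.97, adjusted p = 0.00531), against 0.86% of genes lower and 1.42% higher. The WT change of Nr1i3 was -0.30 (adjusted p = 0.315), and its interaction was called (-1.27, adjusted p = 0.0213).

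As Cyp3a41a and Cyp3a44 are female-predominant, genes known for a sex difference in liver were counted too. Of 10 tested genes higher in females, Cyp2a4, Cyp2b9 and Cux2 were called higher and Cyp4a10 lower after PCN in WT males, with a list median of 0.10, against 3.79% of all genes higher and 2.39% lower. Of 13 tested genes higher in males, 3 were called lower (Nudt7, Hsd3b5 and Slco1a1) and none higher in limma, against 2.39% of all genes called lower. None of either list was called after PCN in Pxr-/- mice.

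The genes near the members were counted as well, a gene being counted if any of its probes was called. The shares of all genes given beside them rest on 1 probe a gene, so the measures differ. Of 21 genes tested within 500 kb of the cluster, 2 were called after PCN in WT mice, the kinase Cdk8 (lower, -0.62 by 1 of its probes) and LOC102641312 (higher), against 3.79% of all genes higher and 2.39% lower. The latter, singled out after its values were seen, is annotated on the array as a predicted Cyp3a41-like gene. Its signal in WT mice was 5.43 ± 0.21 under CONT (SD, n = 6) and 6.73 ± 0.28 under PCN (n = 5). Its signal in Pxr-/- mice was 5.31 ± 0.22 and 5.30 ± 0.46 (n = 6 each), and it was well above background on all 5 WT PCN arrays but on 2 arrays of every other group. It passed the filter through WT PCN arrays alone, so its change is a description. Around Cyp3a13, 1 of 39 genes was called, Agfg2, which was lower.

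The genes most alike to a member were found by the root mean square difference of log2 signals over the 23 arrays, each centred on its WT CONT mean. Nearest to Cyp3a11 was its paralog Cyp3a16 (0.23), and outside the family Ces2a (0.32), Ces2f (0.44), Arhgap1 (0.50), 1700016H13Rik (0.63) and Gstm4 (0.65). Nearest to Cyp3a25 was Cyp3a57 (0.11), and outside the family 4931406C07Rik (0.20), Gypc (0.30), Dcaf4 (0.31), Colgalt2 (0.31) and Tgfbr2 (0.33). Nearest to Cyp3a13 were Itih4 (0.14), Sde2, Fan1, Hp and Lsm6 (0.15 each).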

How the data were processed

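Liver RNA was hybridised to one-colour Agilent arrays (positions on mm9), 1 mouse per array. The deposited scanner files hold spot intensities, written by the authors with Feature Extraction 10.10.1.1 per the labels' processing notes. The authors also deposited a table of normalized log2 values (batch-corrected for washing, CrossNorm), used here as an alternative only. From 62976 spots, controls and 2225 outlier-flagged spots were left out, log2 median signals were averaged per probe (56605 probes), and a probe was kept where over 50% of a group's arrays read it well above background (32087 probes). Arrays were quantile normalized and fitted with limma 3.58.1 in R 4.3.3, with terms for the 4 groups and the washing batch (residual df 18). The study's methods instead corrected for the washing bath and applied CrossNorm before limma; the median signal, log2 scale and thresholds are theirs. P-values were adjusted by Benjamini-Hochberg over all probes. Floored fold differences of dim probes and exact permutation tests were computed as described. Precision is limited by how many arrays a group has.

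Named genes were the members, Cyp3a57, called genes of the lists, the 5 genes most alike to Cyp3a11, Cyp3a25 and Cyp3a13, and called neighbours within 500 kb. The members and lists were chosen with earlier results of these data known. Gene names are those of the array design. Promoters came from RefSeq (GRCm38.p6). Alternatives covered signal, background, scaling, filter, batch, slide, replicate number, samples in the fit and leaving out each array. The script was tested on simulated data.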

Additional observations from a re-analysis of the deposited data

Results flagged for a closer look

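The change after PCN differed between WT and Pxr-/- mice, by the limma interaction, for 6 members and Cyp3a57. The difference of log2 changes was 3.24 for Cyp3a11, 2.92 for Cyp3a16, 2.35 for Cyp3a59 and 1.56 for Cyp3a57. It was 1.43 for Cyp3a41a, 1.39 for Cyp3a25 and 1.09 for Cyp3a44. Cyp3a44 passed the filter through WT PCN arrays alone, so its value is a description.

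In 5 of 32 sets of a gene and a group, a mouse stood apart from the others of its group by Dixon's criterion, which chance meets in about 1 in 20 sets. The WT CONT replicate 6 mouse was lowest for Cyp3a11 (12.83) and Cyp3a16 (11.91). The Pxr-/- CONT replicate 2 mouse was lowest for Cyp3a16 (12.76). The WT PCN replicate 1 mouse was lowest for Cyp3a59 (15.61), and the WT PCN replicate 4 mouse was highest for Cyp3a13 (13.45).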

How the results depend on the processing

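The number of members called higher after PCN in WT mice was 5 or 6 of 7 under all 35 alternatives, and 0 in Pxr-/- mice. It was 5 or 6 for the interaction and 4 to 6 for Pxr-/- PCN below WT PCN. The number called in Pxr-/- CONT against WT CONT mice depended on the setting: it was 0 on the deposited values, 0 within washing batch 1, 0 within washing batch 2 and 1 with only the groups compared, and 2 to 3 when a mouse was left out. The cause was not tested. Cyp3a44 lost its calls with normexp (0.56 in WT mice), was 3.20 on the processed signal, and could not be tested with the strict filter or without WT PCN replicate 2, 3 or 5. Values that changed sign were small and never called. Cyp3a13 in Pxr-/- PCN against WT PCN was -0.26 on the deposited values, -0.010 on the processed signal, -0.032 with 75th percentile scaling, -0.00016 with no batch term, -0.087 within batch 1, -0.021 with the replicate block and -0.047 to 0.088 with a mouse left out. Its interaction was 0.0079 on the deposited values and 0.060 within batch 1, and its WT change was -0.055 within batch 2 and -0.031 to 0.11 with a mouse left out. In Pxr-/- mice the PCN change of Cyp3a25 was 0.023 (deposited), 0.038 (batch 1) and -0.069 to 0.030 (a mouse left out), that of Cyp3a57 0.021, 0.046 and -0.080 to 0.029, and that of Cyp3a44 0.036 (deposited), 0.065 (processed signal), 0.045 (no filter), 0.011 (batch 2) and -0.073 to 0.043 (a mouse left out). The shift of Cyp3a11 against Cyp3a41a was 1.72 within batch 1 and 2.18 within batch 2, and that against Cyp3a16 was 0.54 within batch 2.

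Replicate numbers were not treated as pairing the mice (33 same-numbered pairs, correlation -0.25 to 0.49, 11 over 0.1). Pairs with different numbers were not compared, so these correlations cannot decide whether the numbers pair mice. With the replicate block no member's call changed, and 1774 probes in place of 1770 were called after PCN in WT mice. On the deposited values the share of calls that were higher was 84.3% against 61.3% after PCN in WT mice, 75.3% against 63.9% in Pxr-/- mice, 88.0% against 76.7% for the interaction, 45.7% against 77% between CONT groups and 5.14% against 35.6% between PCN groups (46.7% on the processed signal). The median of all probes there shifted by 0.11, 0.03, 0.08, -0.11 and -0.18. The processed signal called 2884 probes against 1770 in WT mice and 863 between PCN groups, where the deposited values called 1441 against 573.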
